A study of Mus musculus with 9 samples.

Results

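The comparison described here set mouse macrophages that received the Gpr120 agonist cpdA before lipopolysaccharide (LPS) beside macrophages that received LPS alone. It covers the 13895 of 15343 genes in the deposited table that reached a normalized count of 10 in 3 or more of its 9 libraries. Ranked by the value of the library in place 3, the genes just inside that limit were at 10.0 and those just outside at 9.8. RNA was sequenced from intraperitoneal primary macrophages, titled WT (wild type) in every group, of a strain the labels write as CF7B1/6. All 9 libraries came from cells stimulated with 100 ng/ml LPS for 6 h. The cpdA + LPS group had 10 µM cpdA for 1 h before LPS, the LPS group had no pretreatment named in its labels, and the third group had the omega-3 fatty acid DHA (docosahexaenoic acid) at 100 µM, also for 1 h before LPS. Each group had 3 libraries. No vehicle is named for the LPS group, so the compound and the pretreatment step cannot be told apart, and no unstimulated cells were analysed here.

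Gpr120, encoded by Ffar4, is a G protein-coupled receptor for long-chain fatty acids, and DHA is one of its natural ligands. LPS is sensed by TLR4, whose adaptors MyD88 and TRIF lead to NF-kB and to type I interferon, so a macrophage given LPS makes cytokines, chemokines and antiviral proteins together. Agonists of Gpr120 are known for dampening TLR4 signalling in macrophages through beta-arrestin 2, which takes TAB1 away from the kinase TAK1.

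Reads recovered from the normalized counts numbered 27169850 to 29521323 in the LPS libraries and 27144068 to 37572822 in the cpdA + LPS libraries. The labels do not say whether the 3 libraries of a group came from separate animals or cultures, so the p-values measure the spread between these libraries, which may be technical. LPS 3 and cpdA + LPS 3 (cpdA 3 below) stood apart from the others of their groups: at equal depth, the squared difference between cpdA 3 and cpdA 1 was 20 times what counting error gives (median over genes), and that between LPS 3 and LPS 1 was 7.33 times, against 1.56 for LPS 1 and LPS 2. cpdA 1 lay closer to DHA 1, a library of the other compound, than to cpdA 2, with ratios of 1.24 and 2.55. Whether these 2 libraries share a source or a label was exchanged was not tested, so values of cpdA 1, and the calls that need it, rest on its label as given. Results below are therefore given with all 9 libraries and, where LPS 3 and cpdA 3 matter, without them, which leaves 2 libraries on each side and 3 DHA libraries that contribute to the estimate of spread. Ffar4 itself had 0 reads in 7 libraries, 2 reads in LPS 3 and 3 reads in cpdA 3. A count of 0 allows up to 3 reads, so the receptor was at or under the limit of detection in these RNA libraries, and no fold was computed for it.

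Cpt1a (Entrez 12894), the carnitine transferase that commits long-chain fatty acids to mitochondrial oxidation, rose with cpdA. Its normalized counts were 1532.5, 1503.8 and 1847.9 in LPS 1, 2 and 3 and 3706.4, 3664.3 and 3570.2 in cpdA 1, 2 and 3. Every cpdA library was about as high as the next, and the groups were far apart. The means were 1628 ± 191 and 3647 ± 69.7 (SD, n = 3), and the difference in log2(normalized count + 1), called the log2 change below, was 1.17 (SE 0.11; limma, Benjamini-Hochberg adjusted p = 0.0183). In a fit blocked on the replicate number its limma adjusted p was 0.133. Left out singly, LPS 1, LPS 2, cpdA 1, cpdA 2, DHA 1 or DHA 3 ended the call (limma adjusted p = 0.238, 0.212, 0.189, 0.113, 0.0532 and 0.105). Over all 9 libraries left out in turn the log2 change stayed between 1.12 and 1.26.

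At the limma threshold of 0.05 Cpt1a was the single call among 13895 genes (1 gene), which is 0.0072% of the genes tested, and 2030 genes had an unadjusted p under 0.05. On recovered reads edgeR called 1 gene and DESeq2 called 391, of which 193 were higher and 198 lower. As LPS 3 and cpdA 3 stood apart, separation between the groups was also described without a test. In 1485 genes (10.7%) all 3 cpdA libraries lay above all 3 LPS libraries, and in 1702 genes (12.2%) all 3 lay below. These shares are the background for the gene groups that follow. Without LPS 3 and cpdA 3, limma called 222 genes: 99 higher (0.712% of those tested) and 123 lower (0.885%), and 79 and 91 of these also had groups of 3 that did not overlap. edgeR on the same 7 libraries called all 222 among its 290. That count of 222 fell to 8 without cpdA 1, 11 without LPS 1, 12 without LPS 2, 55 without cpdA 2 and 120 without DHA 3, and it was 730 without DHA 1 and 522 without DHA 2.

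**Figure D1:**
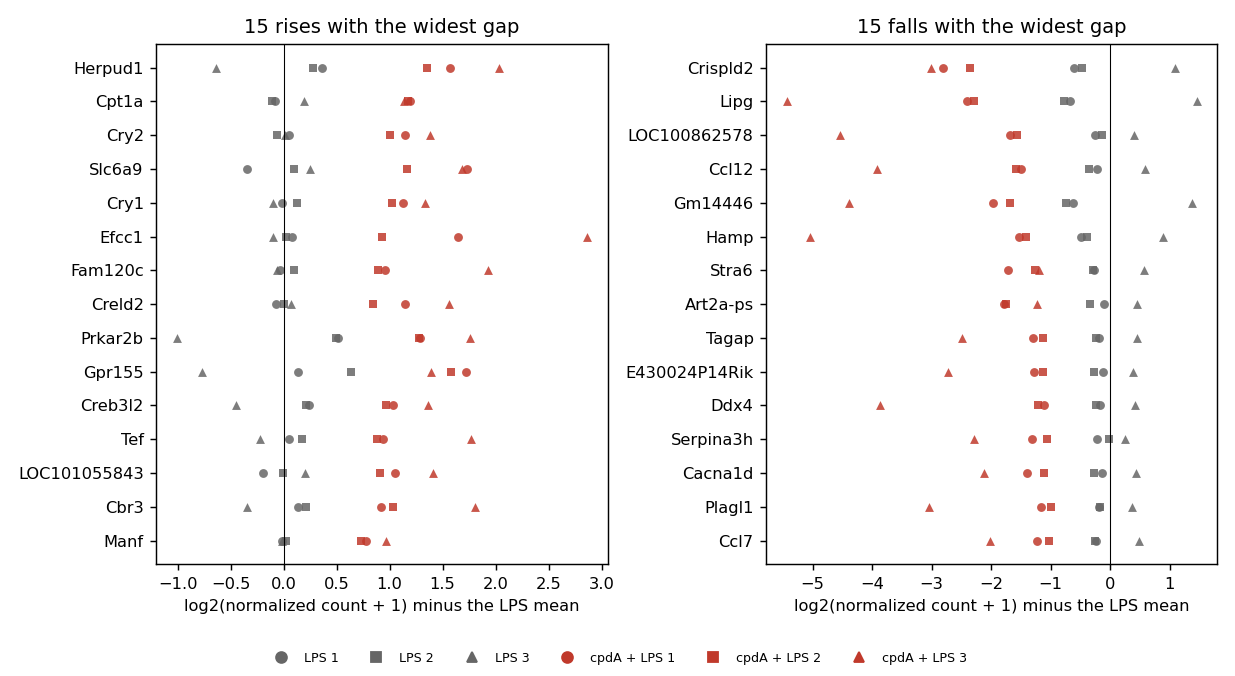
Each row is a gene, and each point is the log2(normalized count + 1) of 1 library minus the mean of the 3 LPS libraries (grey, LPS 1 to 3; red, cpdA + LPS 1 to 3). The genes are the 15 on each side whose nearest libraries of the 2 groups lie farthest apart, so that no red point reaches a grey one. Among the falls on the right, the red triangle (cpdA 3) often lies beyond the other red points and the grey triangle (LPS 3) beyond the other grey points, as in Lipg.

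The genes with the widest empty gap between the groups are shown in the plot of the 15 widest gaps on each side. The gap is the log2 distance from the lowest cpdA library to the highest LPS library, or the reverse, and was 0.70 or more in each of the 15 upward genes. These genes were ranked by that gap, so it is a description. Herpud1, a membrane protein of ER-associated degradation, had 441.3, 416.0 and 221.0 normalized counts with LPS and 1022.1, 878.2 and 1411.6 with cpdA. Its log2 change of 1.65 (SE 0.27) had a limma adjusted p of 0.132, and without LPS 3 and cpdA 3 it was 1.14 (limma adjusted p = 0.00168). Cry2 and Cry1, the cryptochromes that repress the circadian clock, had gaps of 0.95 and 0.90. Slc6a9, the glycine transporter GlyT1, had 26.1, 35.7 and 39.9 counts with LPS and 113.2, 76.3 and 109.6 with cpdA. The 3 cpdA values were all above, by a log2 change of 1.53 (SE 0.23; limma adjusted p = 0.13) and of 1.57 without LPS 3 and cpdA 3 (limma adjusted p = 0.0125).

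Further upward genes with wide gaps included Manf and Creld2, secreted proteins of the ER stress response, Creb3l2, an ER-anchored transcription factor, Prkar2b, a regulatory subunit of protein kinase A, Gpr155, a lysosomal cholesterol sensor, Cbr3, a carbonyl reductase, and Tef, a clock output factor. Efcc1, Fam120c and LOC101055843, described as perilipin-2-like, completed the 15. LOC101055843 may share reads with the far higher Plin2, which leaves its values uncertain. Gpr155 had 41.3, 58.8 and 21.5 counts with LPS and 125.9, 114.0 and 99.6 with cpdA, so its highest LPS value was well under its lowest cpdA value. Without LPS 3 and cpdA 3, all of these 15 but Fam120c passed the limma test. They were chosen by their gap in the same libraries, so that count is no separate support. Fam120c had a log2 change of 0.89 (limma adjusted p = 0.408).

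Among downward genes the widest gap, -1.75, belonged to Crispld2, a secreted protein that binds LPS. Its counts were 32.6, 35.7 and 108.5 with LPS and 6.3, 9.0 and 5.4 with cpdA, a log2 change of -2.72 (SE 0.46; limma adjusted p = 0.132). Lipg, the endothelial lipase that releases fatty acids from lipoproteins, had 613.0, 569.3 and 2682.9 with LPS and 184.1, 200.1 and 21.7 with cpdA. LPS 3 was the highest and cpdA 3 the lowest of all 6, so the log2 change of -3.37 (limma adjusted p = 0.224) became -1.62 without them (limma adjusted p = 0.000698). Ccl12 and Ccl7, chemokines that attract monocytes, had gaps of -1.15 and -0.79. Stra6, a retinol transporter, had 131.5, 129.1 and 234.3 with LPS and 47.6, 65.6 and 68.8 with cpdA, and its log2 change was -1.39 with all 9 libraries and -1.21 without the 2.

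Hamp, the iron hormone hepcidin, had 64.1, 69.1 and 168.8 counts with LPS and 30.7, 33.6 and 1.8 with cpdA. cpdA 3 was nearly empty of it, and the log2 change went from -2.66 (limma adjusted p = 0.25) to -1.03 without LPS 3 and cpdA 3 (limma adjusted p = 0.105). Tagap, a GTPase-activating protein of immune cells, Plagl1, a zinc finger transcription factor, Cacna1d, a calcium channel subunit, Ddx4, an RNA helicase of germ cells, and E430024P14Rik also lay lower in all 3 cpdA libraries. LOC100862578, Gm14446, Serpina3h and the pseudogene Art2a-ps did so too, but near-identical copies elsewhere may take part of their reads, which leaves their values uncertain. All 15 downward genes except Hamp, Ddx4 and Art2a-ps passed the limma test without LPS 3 and cpdA 3. They too were chosen by their gap in the same libraries, so that count is no separate support. In these bulk libraries, fewer cells of a type and less RNA per cell cannot be told apart.

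**Figure D2:**
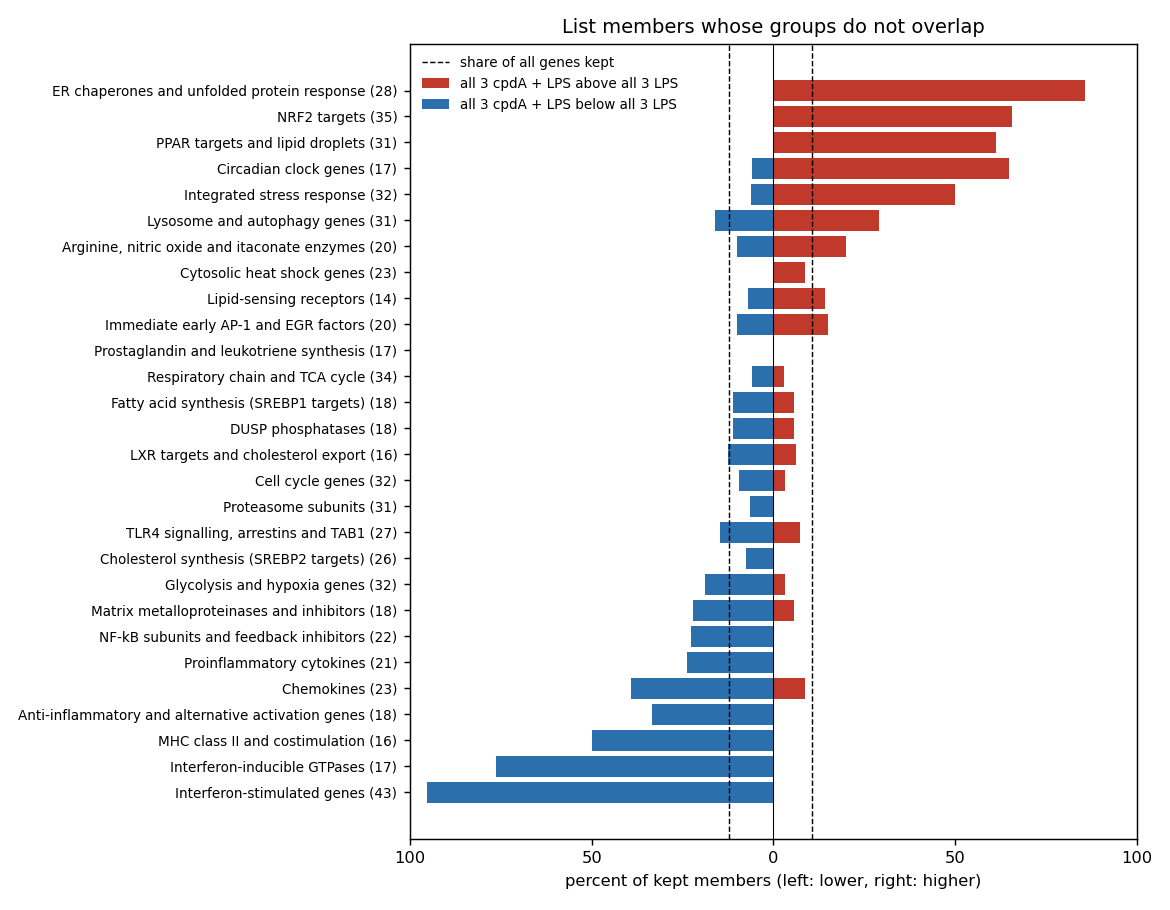
Bars give the percent of kept members of each gene list whose 3 cpdA + LPS libraries all lie above (right, red) or all below (left, blue) the 3 LPS libraries, with the number of kept members in brackets. Dashed lines mark the shares over all genes kept, 10.7% above and 12.2% below. ER chaperones reach 85.7% on the right and interferon-stimulated genes 95.3% on the left.

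5 gene lists had over 4 times the background share of members above LPS, and the interferon lists lay on the other side, as the bar plot of list shares shows. The lists were described by counts and medians and were not tested as sets. All were chosen with earlier results of these data known, so their shares are descriptions. Genes of lipid handling are given first. PPAR receptors are nuclear receptors that fatty acids bind, and their targets burn fatty acids or coat lipid droplets. Of 31 kept PPAR targets and lipid droplet genes, 29 had a positive log2 change, 19 (61.3%) lay above LPS in all 3 cpdA libraries and 0 lay below. The median log2 change was 0.27, against -0.004 over all genes kept, and 0.22 without LPS 3 and cpdA 3.

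Plin2, the main coat protein of lipid droplets in macrophages, had 11175.2, 10594.7 and 15607.1 counts with LPS and 24827.5, 22258.0 and 39054.7 with cpdA. LPS 3 and cpdA 3 were each the highest of their group, and the log2 change was 1.18 (SE 0.23; limma adjusted p = 0.161). Without these libraries Plin2 rose by 1.11 (limma adjusted p = 0.000698). Hilpda, which slows the breakdown of lipid droplets, had 1609.7, 1511.9 and 1360.9 with LPS and 3136.1, 2809.1 and 2383.1 with cpdA, a log2 change of 0.89 (limma adjusted p = 0.132) and of 0.93 without the 2 libraries (limma adjusted p = 0.00938). Angptl4, a secreted inhibitor of lipoprotein lipase, had a log2 change of 0.94, and it rose by 1.02 without them (limma adjusted p = 0.0178). Together with Cpt1a these were the 4 members called without LPS 3 and cpdA 3.

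Cholesterol synthesis genes, which the factor SREBP2 turns on when sterol is low, ran the other way. All 26 kept members had a negative log2 change, with a median of -0.58 with 9 libraries and -0.64 without LPS 3 and cpdA 3, yet 2 (7.69%) had groups that did not overlap, under the background of 12.2%. The single libraries lie behind both values: the list's median relative to the LPS mean was 0.32, 0.29 and -0.65 in LPS 1, 2 and 3 and -0.38, -0.22 and -1.21 in cpdA 1, 2 and 3. LPS 3 thus lay below cpdA 1 and cpdA 2, and each number 3 library lay below the others of its group. Without LPS 3 and cpdA 3, 17 of the 26 passed the limma test, all lower with cpdA. Sc5d, which makes a late double bond of the sterol ring, had 4251.8, 4391.6 and 2593.8 counts with LPS and 1888.6, 2190.9 and 1273.1 with cpdA. It was the widest-separated member, with a log2 change of -1.07 (SE 0.24; limma adjusted p = 0.201) and of -1.09 without the 2 libraries (limma adjusted p = 0.0015). Hmgcs1, the first committed step, had 14808.6, 15476.1 and 6149.5 with LPS and 8142.9, 10178.7 and 3794.7 with cpdA. Its LPS 3 value was lower than cpdA 1 and cpdA 2, so the groups overlapped, and the log2 change was -0.72 (limma adjusted p = 0.452) and -0.73 without the 2 libraries (limma adjusted p = 0.0106).

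The fatty acid synthesis genes under SREBP1 had a median of -0.22, with 1 of 18 above and 2 below LPS in all libraries. Srebf1, which encodes the factor itself, had 2729.1, 2431.5 and 2657.3 counts with LPS and 2152.1, 1884.2 and 1583.6 with cpdA, and no cpdA library reached an LPS library (log2 change -0.49, SE 0.13; limma adjusted p = 0.224). Without LPS 3 and cpdA 3 its log2 change was -0.36 (limma adjusted p = 0.232). Fads2, a desaturase of polyunsaturated fatty acids, had a log2 change of -1.01 and fell by 0.98 without LPS 3 and cpdA 3 (limma adjusted p = 0.0151). LXR targets, which export cholesterol, had a median of -0.05. Abcg1, an exporter of cholesterol to HDL, had 3041.1, 2882.0 and 4692.4 with LPS and 1422.0, 1455.4 and 2059.0 with cpdA. Its highest cpdA value was lower than its lowest LPS value, with a log2 change of -1.09 (SE 0.29; limma adjusted p = 0.224). Without LPS 3 and cpdA 3 the log2 change of Abcg1 was -1.04 (limma adjusted p = 0.31). Abca1, the other main exporter, had groups that overlapped and a log2 change of -0.46 (limma adjusted p = 0.285).

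The ER chaperone and unfolded protein response list had the highest share of members above LPS. These proteins fold secreted and membrane proteins in the endoplasmic reticulum (ER) and degrade those that fail, and the factors ATF6 and XBP1 turn them on. All 28 kept members had a positive log2 change, 24 (85.7%) lay above LPS in all 3 cpdA libraries and 0 lay below. The median was 0.42, and 0.37 without LPS 3 and cpdA 3, where 11 members passed the limma test, all higher with cpdA. The list's median in each library was 0.00, 0.01 and -0.02 with LPS and 0.41, 0.34 and 0.66 with cpdA, so LPS 3 did not stand apart here and cpdA 3 lay on the far side of the others.

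**Figure D3:**
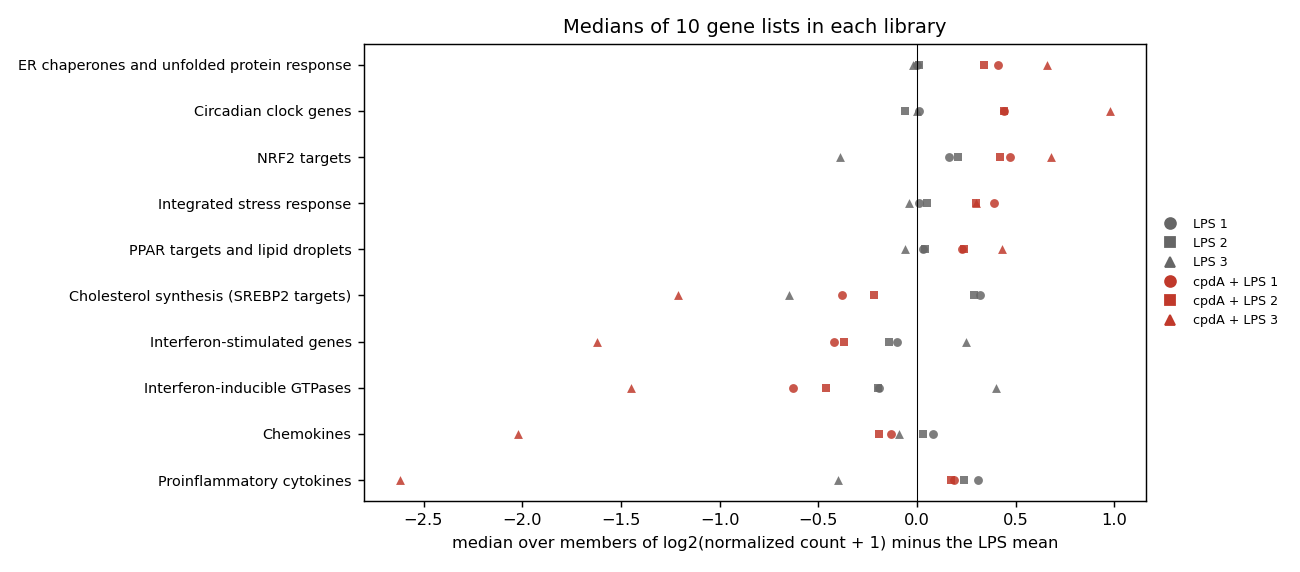
Points give the median over the kept members of a list of log2(normalized count + 1) minus the LPS mean, in each LPS library (grey) and each cpdA + LPS library (red). Red and grey do not overlap for the 5 lists at the top or for the interferon and chemokine lists. For cholesterol synthesis genes and proinflammatory cytokines LPS 3 (grey triangle) lies below cpdA 1 and cpdA 2.

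Hspa5, the main ER chaperone BiP, had 29598.8, 28790.4 and 32964.8 counts with LPS and 50227.3, 46853.7 and 49118.8 with cpdA. The 3 cpdA values were close together and far above LPS (log2 change 0.68, SE 0.16; limma adjusted p = 0.2). Without LPS 3 and cpdA 3 the log2 change was 0.73 (limma adjusted p = 0.0247). Manf, a secreted factor of the ER stress response, had 1877.0, 1926.7 and 1875.5 with LPS and 3249.3, 3133.0 and 3702.4 with cpdA, a log2 change of 0.82 (SE 0.11; limma adjusted p = 0.0809). Creld2, another secreted ER stress protein, had 569.5, 600.4 and 626.2 with LPS and 1324.7, 1072.5 and 1769.2 with cpdA. Its cpdA 3 value was the highest, and the log2 change went from 1.18 to 1.03 without the 2 libraries (limma adjusted p = 0.132 and 0.0128). Hyou1, a large ER chaperone, had 2681.3, 2620.4 and 2735.0 with LPS and 4927.4, 4271.1 and 8285.8 with cpdA, so most of its spread came from cpdA 3 (log2 change 1.06 with it and LPS 3, 0.79 without).

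ATF6 and XBP1 act with NF-Y at an ER stress response element, searched here as CCAAT, any 9 bases and CCACG on both strands in the 250 bases before each RefSeq start site (GRCm38.p6, not the mm9 build of the deposited counts). It occurred in 0.113% of 32851 promoters and in 9 of the 23 list members with a promoter in the table. Windows of 6 of these members are printed because all their cpdA libraries lay above LPS. They are read 5′ to 3′ on the gene's strand, and capitals mark the match with its spacer, on either strand. None of the matches overlapped another motif searched.
Hspa5 (chr2:34772010-34772058, plus strand): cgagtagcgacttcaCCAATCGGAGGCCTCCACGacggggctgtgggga
Pdia6 (chr12:17266476-17266524, plus strand): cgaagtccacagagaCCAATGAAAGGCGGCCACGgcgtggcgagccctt
Dnajc3 (chr14:118937812-118937860, plus strand): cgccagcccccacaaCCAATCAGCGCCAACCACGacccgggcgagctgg
Creld2 (chr15:88819505-88819553, plus strand): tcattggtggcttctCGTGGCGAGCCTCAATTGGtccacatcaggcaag
Hsp90b1 (chr10:86705518-86705566, minus strand): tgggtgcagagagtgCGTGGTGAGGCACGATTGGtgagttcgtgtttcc
Calr (chr8:84847060-84847108, minus strand): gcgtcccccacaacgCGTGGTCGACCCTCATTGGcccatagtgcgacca

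In the first 3 windows the element reads as written, and in the other 3 it lies on the other strand. Pdia6, a disulfide isomerase, had a log2 change of 0.75, Hsp90b1, the ER form of Hsp90, of 0.74, Calr, a calcium-binding chaperone, of 0.64, and Dnajc3, a co-chaperone of BiP, of 0.62. Across all 10464 kept genes with a promoter in the table, 19 held the element. Of these 19, 7 (36.8%) lay above LPS in all cpdA libraries and 0 lay below, against 11.3% and 12.3% of all kept genes with a promoter. All 7 belong to the list above (the 6 printed and Canx), so the share is not separate from it. A match describes letters and not a bound site.

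The integrated stress response follows phosphorylation of eIF2alpha and acts through ATF4 on amino acid transport, tRNA charging and serine synthesis. Of 32 kept members, 27 had a positive log2 change, 16 (50%) lay above and 2 (6.25%) below LPS in all libraries, with a median of 0.38 and of 0.33 without LPS 3 and cpdA 3. Phgdh, which opens serine synthesis, had 389.1, 318.0 and 223.1 counts with LPS and 720.5, 599.4 and 561.4 with cpdA (log2 change 1.04, SE 0.24; limma adjusted p = 0.198). Slc7a5, a carrier of large neutral amino acids, had a log2 change of 0.70 and Eprs, a tRNA synthetase, one of 0.41, each without overlap. Phgdh, Slc7a5 and Eprs did not pass the limma test without LPS 3 and cpdA 3 (adjusted p = 0.105, 0.179 and 0.105). Chac1, which degrades glutathione, had 37.0, 41.5 and 66.5 with LPS and 119.6, 84.5 and 86.0 with cpdA. LPS 3 came closest to cpdA, and the log2 change of 1.01 became 1.34 without the 2 libraries (limma adjusted p = 0.252 and 0.1). Trib3, a pseudokinase target of ATF4, had a log2 change of 0.92 (limma adjusted p = 0.202), and Ddit3, the factor CHOP, one of 0.31 with groups that overlapped (limma adjusted p = 0.385). Trib3 was at 0.84 without the 2 libraries (limma adjusted p = 0.0846).

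ATF4 with C/EBP factors binds an amino acid response element, searched as TGATGCAA on both strands. It occurred in 0.791% of promoters and in 6 of 26 list members with a promoter. 2 windows are printed, for the member with an element whose groups did not overlap and for the one with the largest log2 change, and capitals mark the match on the other strand.
Chac1 (chr2:119351034-119351071, plus strand): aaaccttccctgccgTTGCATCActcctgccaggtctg
Slc7a11 (chr3:50443638-50443675, minus strand): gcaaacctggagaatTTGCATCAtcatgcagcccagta

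Of the 6 members with the element, the groups separated in Chac1 alone. Aars and Vldlr had log2 changes of 0.17 and 0.14, and Atf3 and Nupr1 of -0.13 and -0.26. Over all genes, 14.7% of the 68 kept genes with the element lay above LPS and 8.82% below, with a median of 0.01. The shares of all kept genes with a promoter were 11.3% and 12.3%.

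NRF2 targets defend against oxidants and electrophiles, by making glutathione and handling iron and heme. Of 35 kept members, 33 had a positive log2 change, 23 (65.7%) lay above LPS in all libraries and 0 lay below. The median of 0.50 became 0.26 without LPS 3 and cpdA 3, and the list's median in LPS 3 was -0.39, under 0.16 and 0.21 in LPS 1 and LPS 2. Gclm, the regulatory subunit of the enzyme that starts glutathione synthesis, had 1829.2, 1978.6 and 676.3 counts with LPS and 2948.8, 3005.9 and 3270.5 with cpdA. LPS 3 was much the lowest, and the log2 change went from 1.19 (limma adjusted p = 0.23) to 0.65 without the 2 libraries (limma adjusted p = 0.0138). Akr1b8, an aldo-keto reductase, and Abcc1, which exports glutathione conjugates, had log2 changes of 1.07 and 0.99, each without overlap.

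Slc7a11, the cystine importer listed with both NRF2 and ATF4, had 10626.3, 11978.7 and 1928.8 with LPS and 18857.9, 21414.3 and 8714.0 with cpdA. Both number 3 libraries were low, so cpdA 3 lay under LPS 1 and LPS 2, and the log2 change was 1.28 (SE 0.64; limma adjusted p = 0.389) and 0.83 without the 2 libraries (limma adjusted p = 0.0126). Hmox1, which degrades heme, had 14225.0, 15900.2 and 7616.8 with LPS and 24821.1, 21147.8 and 18229.4 with cpdA, with no overlap and a log2 change of 0.82 (limma adjusted p = 0.252). Without the 2 libraries its log2 change was 0.61 (limma adjusted p = 0.105). Cytosolic heat shock genes, another stress group, had no such share: 2 of 23 (8.7%) lay above LPS, with a median of -0.09 that turned to 0.19 without LPS 3 and cpdA 3.

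Circadian clock genes form a loop in which CLOCK and BMAL1 turn on Per and Cry genes, whose products then repress them. Of 17 kept members, 14 had a positive log2 change, 11 (64.7%) lay above LPS in all cpdA libraries and 1 (5.88%) below. The median was 0.63, and 0.35 without LPS 3 and cpdA 3, where 7 members passed the limma test, all higher with cpdA. As with the other lists, its share is a description. It had been drawn up by an earlier analysis that had seen these data. Cry1 had 428.2, 472.5 and 404.2 counts with LPS and 945.9, 884.7 and 1092.9 with cpdA. Its 6 values formed tight groups with a log2 change of 1.16 (SE 0.14; limma adjusted p = 0.0809), and 1.02 without the 2 libraries (limma adjusted p = 0.00614). Cry2 had 85.9, 79.5 and 83.9 with LPS and 185.2, 167.3 and 218.2 with cpdA (log2 change 1.18, SE 0.15; limma adjusted p = 0.0809).

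Per2, a partner of the cryptochromes, had 35.9, 32.3 and 49.1 counts with LPS and 80.4, 112.3 and 204.6 with cpdA, so the cpdA values varied widely and all lay above LPS (log2 change 1.65, SE 0.32; limma adjusted p = 0.161). Without LPS 3 and cpdA 3 it rose by 1.45 (limma adjusted p = 0.00664). Nr1d1, the repressor REV-ERBalpha, had 42.4, 40.3 and 58.3 with LPS and 103.7, 91.8 and 65.2 with cpdA. Here cpdA 3 was the lowest of its group, close to LPS 3, and the log2 change of 0.87 (limma adjusted p = 0.224) became 1.22 without both (limma adjusted p = 0.0106). Tef had a log2 change of 1.20 and rose by 0.80 without them (limma adjusted p = 0.0203). The members of the activating arm differed little: Arntl, which encodes BMAL1, was at 0.00 and Clock at 0.23. The single member below LPS was Ciart, a clock repressor listed in the table as Gm129, at 29.3, 30.0 and 30.7 with LPS and 28.6, 26.2 and 26.3 with cpdA.

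CLOCK and BMAL1, like other basic helix-loop-helix factors, bind the E-box CACGTG, which reads the same on both strands. It occurred in 6.02% of promoters, in 9.81% of the kept genes that had one, and in 5 of 15 clock list members. All 5 are named here, and 1 window each is printed for the 4 that lay above LPS, with capitals marking the E-box.
Cry1 (chr10:85185094-85185129, minus strand): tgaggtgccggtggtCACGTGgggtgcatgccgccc
Tef (chr15:81802531-81802566, plus strand): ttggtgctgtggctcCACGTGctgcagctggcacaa
Per1 (chr11:69098768-69098803, plus strand): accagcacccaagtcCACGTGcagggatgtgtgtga
Bhlhe41 (chr6:145865553-145865588, minus strand): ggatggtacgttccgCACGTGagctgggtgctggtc

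Per1 and Bhlhe41, 2 further repressors of the loop, had log2 changes of 0.85 and 0.86 with no overlap. The fifth gene with an E-box was Gm129, which lay below LPS. Over all 1027 kept genes with an E-box, 13.8% lay above LPS and 9.83% below, near the background of 11.3% and 12.3%.

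**Figure D4:**
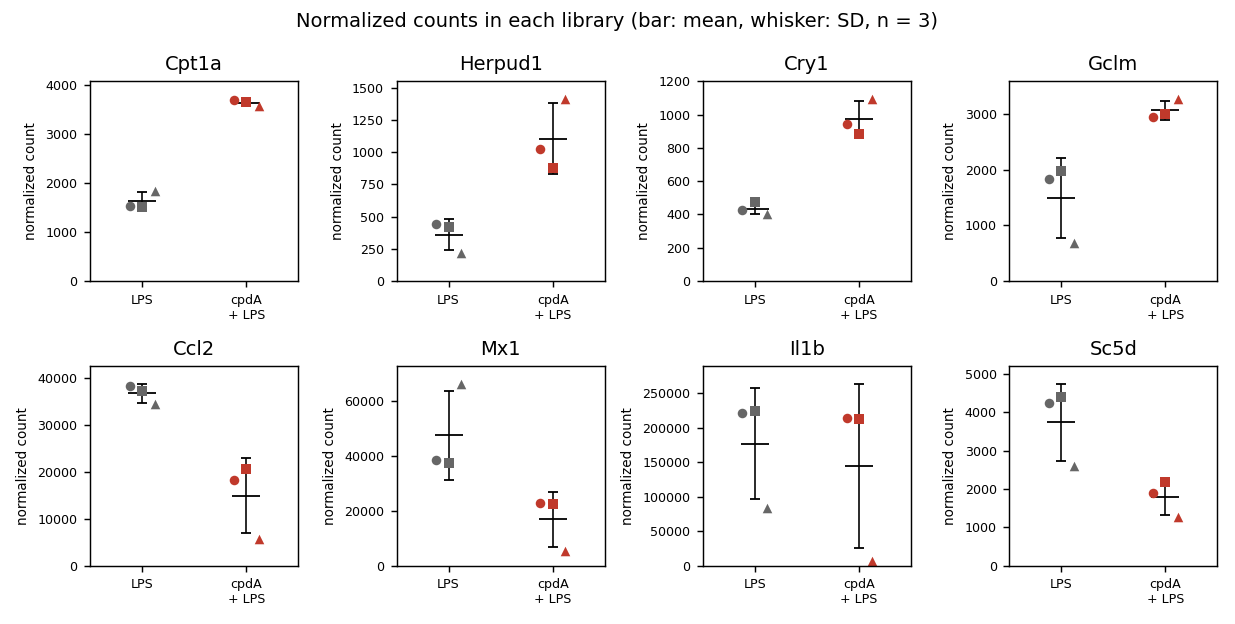
Normalized counts of 8 genes in each LPS (grey) and cpdA + LPS (red) library, with circles, squares and triangles for libraries 1, 2 and 3, the bar at the mean and the whisker at the SD (n = 3). Cpt1a, Herpud1, Cry1 and Gclm are higher in all red points, Ccl2, Mx1 and Sc5d are lower in all red points, and Il1b overlaps, with cpdA 3 at 6839.8.

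Interferon-stimulated genes encode antiviral proteins that type I interferon, made after TLR4 signals through TRIF, turns on. All 43 kept members had a negative log2 change, 41 (95.3%) lay below LPS in all 3 cpdA libraries and 0 lay above. The size of the difference depended on 2 libraries: the median of -0.80 became -0.28 without LPS 3 and cpdA 3. In that fit 3 members passed the limma test, all lower with cpdA. The list's median in each library was -0.10, -0.14 and 0.25 in LPS 1, 2 and 3 and -0.42, -0.37 and -1.62 in cpdA 1, 2 and 3. LPS 3 was the highest and cpdA 3 much the lowest, while the 4 other libraries kept the order with a narrow margin. Ifnb1, the interferon beta gene, had low counts, 21.7, 35.7 and 65.5 counts with LPS and 10.6, 6.6 and 0.0 with cpdA (log2 change -3.10, SE 0.83; limma adjusted p = 0.224). Without LPS 3 and cpdA 3 its log2 change was -1.62 (limma adjusted p = 0.118).

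Mx1, an antiviral GTPase, had 38561.1, 37449.2 and 66069.8 counts with LPS and 22707.1, 22485.2 and 5208.1 with cpdA. Its log2 change was -1.72 (SE 0.52; limma adjusted p = 0.233), and it fell by 0.75 without LPS 3 and cpdA 3 (limma adjusted p = 0.0274). Ifit3, which binds viral RNA complexes, had 35811.3, 35067.2 and 80288.4 with LPS and 20958.1, 22308.9 and 11148.8 with cpdA, with log2 changes of -1.42 and -0.71 in the 2 fits (limma adjusted p = 0.224 and 0.0206). Cxcl10, a chemokine that attracts T cells and is itself induced by interferon, had 56126.1, 51819.0 and 109083.6 with LPS and 32507.9, 35474.6 and 12886.3 with cpdA. In each of these 3 genes LPS 1 and LPS 2 were nearly equal, as were cpdA 1 and cpdA 2, and the number 3 libraries went opposite ways.

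**Figure D5:**
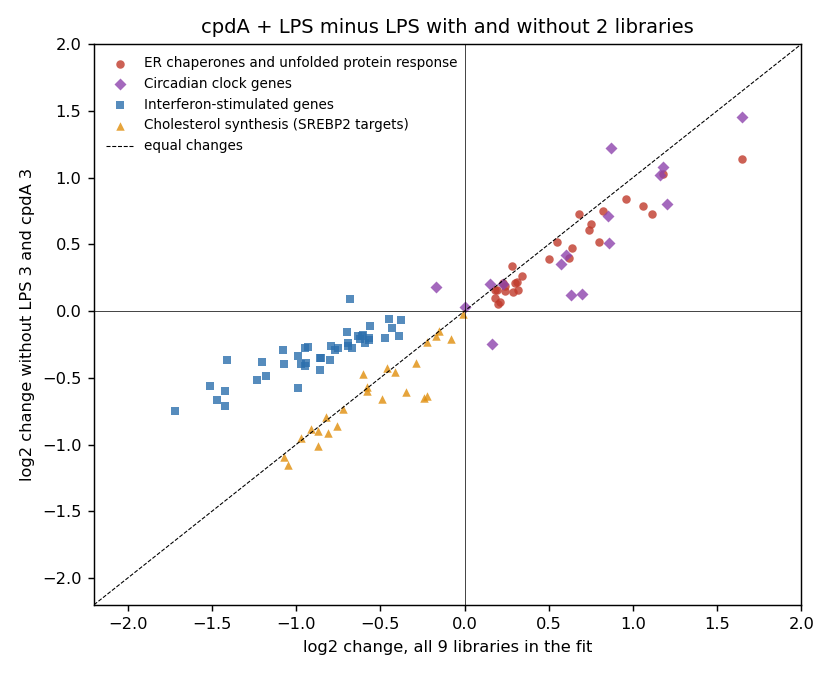
Each point is a kept list member matched by the symbol in the list, with its log2 change (cpdA + LPS minus LPS) in the fit of 9 libraries on the x axis and without LPS 3 and cpdA 3 on the y axis. The dashed line marks equal changes. ER chaperones and clock genes lie mostly under the line on the right, interferon-stimulated genes lie closer to 0 on the y axis than on the x axis, and most cholesterol synthesis genes lie on or under the line.

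Of 17 kept interferon-inducible GTPases, which attack the vacuoles of intracellular microbes, all had a negative log2 change and 13 (76.5%) lay below LPS, with a median of -0.90 that became -0.35 without LPS 3 and cpdA 3. Gbp2, a guanylate-binding protein, had 102888.7, 103732.5 and 118245.4 counts with LPS and 74970.2, 81234.5 and 30056.4 with cpdA (log2 change -0.93, SE 0.35; limma adjusted p = 0.283). Without LPS 3 and cpdA 3 its log2 change was -0.40 (limma adjusted p = 0.265). Tgtp1 and Tgtp2, each with a log2 change of -1.24, are near-identical neighbours whose reads may be shared.

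Factors that interferon activates bind the interferon-stimulated response element, searched as GAAA, any 2 bases and GAAA on both strands. It occurred in 2.98% of promoters, in 12 of 32 interferon-stimulated genes with a promoter and in 9 of 9 GTPases with one. 4 windows are printed, for genes given above and for Isg15, whose window holds 3 copies that overlap one another, and capitals mark the matches.
Ifit3 (chr19:34583392-34583431, plus strand): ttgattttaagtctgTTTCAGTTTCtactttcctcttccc
Gbp2 (chr3:142620589-142620628, plus strand): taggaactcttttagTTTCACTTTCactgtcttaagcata
Cxcl10 (chr5:92349078-92349117, minus strand): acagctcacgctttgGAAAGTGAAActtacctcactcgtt
Isg15 (chr4:156200860-156200899, minus strand): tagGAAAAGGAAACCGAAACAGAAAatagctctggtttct

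Isg15, a ubiquitin-like antiviral protein, had a log2 change of -0.95. In Ifit3 and Gbp2 the element lies on the other strand. Over all 365 kept genes with the element, 31.2% lay below LPS in all cpdA libraries and 7.95% above, beside 12.3% and 11.3% of all kept genes with a promoter. Of 191 kept genes with the NF-kB site, searched as GGG, any 2 bases and TTTCC on both strands, 15.7% lay below and 8.9% above. Elements of SREBP, NRF2 and PPAR factors were searched too. Of 124 kept genes with the SREBP element, 14.5% lay above and 12.1% below. For the NRF2 element, in 1457 kept genes, the shares were 11.9% and 13%, near those of all kept genes with a promoter. The PPAR element occurred in 5 kept genes, too few to read.

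Inflammatory cytokines, the classical readout of TLR4, separated in few members. Of 21 kept members 19 had a negative log2 change, with 5 (23.8%) below and 0 above LPS, and the median of -0.60 became -0.17 without LPS 3 and cpdA 3. In that fit 1 member passed the limma test as higher and 0 as lower. Without cpdA 3 alone the median turned to 0.11. The list's median was 0.31, 0.24 and -0.40 in LPS 1, 2 and 3 and 0.19, 0.17 and -2.62 in cpdA 1, 2 and 3. Tnf, the first wave cytokine, had 104072.3, 99203.7 and 56873.2 counts with LPS and 96546.2, 84474.1 and 30769.8 with cpdA. Il6, which drives the acute phase response, had 16329.2, 15859.8 and 5043.4 with LPS and 10417.7, 12593.4 and 125.9 with cpdA. Il1b, made as a precursor that inflammasomes cleave, had 221480.5, 224381.5 and 83956.6 with LPS and 213646.3, 212644.3 and 6839.8 with cpdA. In all 3 genes cpdA 3 was the lowest and LPS 3 the next lowest, so the groups overlapped.

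The log2 changes of Tnf, Il6 and Il1b were -0.41, -2.10 and -1.25 (limma adjusted p = 0.697, 0.543 and 0.65) and turned to 0.11, 0.07 and 0.40 without cpdA 3. Without both number 3 libraries they were -0.17, -0.49 and -0.06, and none passed the limma test (adjusted p = 0.815, 0.136 and 0.94). Il12b, a subunit of interleukins 12 and 23, was at -0.60 with 9 libraries and at 0.12 without the 2. Ptgs2, the inducible cyclooxygenase, was at -0.92 and -0.08. Il15, which sustains NK and memory T cells, and Il33, an alarmin, did separate: Il33 had 273.9, 257.0 and 309.0 counts with LPS and 122.7, 186.9 and 111.4 with cpdA (log2 change -1.02, SE 0.21; limma adjusted p = 0.171). Neither Il33 nor Il15 passed the limma test without both number 3 libraries (adjusted p = 0.0937 and 0.34).

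Of 23 kept chemokines, which attract leukocytes, 7 had a positive and 16 a negative log2 change, and 9 (39.1%) lay below and 2 (8.7%) above LPS. The median of -0.70 became -0.21 without LPS 3 and cpdA 3, where 5 members passed the limma test as lower and 1 as higher. Ccl2, the main monocyte attractant, had 38432.9, 37413.4 and 34516.0 counts with LPS and 18401.8, 20555.8 and 5727.0 with cpdA. The 3 LPS values were alike and every cpdA value was far lower, by a log2 change of -1.51 (SE 0.41; limma adjusted p = 0.224), and Ccl2 fell by 0.96 without the 2 libraries (limma adjusted p = 0.0043). Ccl7, a neighbour gene of like function, had 8395.0, 8320.0 and 13902.4 with LPS and 4217.4, 4822.1 and 2441.1 with cpdA, with log2 changes of -1.43 and -0.89 in the 2 fits (limma adjusted p = 0.161 and 0.0043). Ccl12 had 246.7, 224.7 and 428.7 with LPS and 100.5, 95.1 and 18.1 with cpdA, with log2 changes of -2.34 and -1.26 (limma adjusted p = 0.224 and 0.00452).

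Nos2, the inducible nitric oxide synthase, had 22275.4, 21073.1 and 33340.3 counts with LPS and 12140.2, 14046.4 and 575.9 with cpdA. cpdA 3 was far below the other 2, so the log2 change of -2.44 (SE 1.02; limma adjusted p = 0.322) became -0.73 without the number 3 libraries (limma adjusted p = 0.0106). The list of arginine, nitric oxide and itaconate enzymes that holds it had a median of 0.03, with 4 of 20 above and 2 below LPS. Arg1, the arginase of alternatively activated macrophages, had 118.5, 127.9 and 122.8 with LPS and 139.7, 100.9 and 110.5 with cpdA, on both sides of the LPS values.

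Of 18 kept anti-inflammatory and alternative activation genes, 7 had a positive and 11 a negative log2 change, 6 (33.3%) lay below LPS and 0 above, and the median was -0.15 in both fits. Il1rn, the antagonist of the interleukin 1 receptor, had 38179.6, 37693.5 and 87240.1 counts with LPS and 22143.2, 23460.1 and 17489.6 with cpdA, and its log2 change was -1.26 (SE 0.31; limma adjusted p = 0.224) with 9 libraries and -0.73 without the 2 (limma adjusted p = 0.0125). Il10, which shuts down macrophage activation, had low counts, 25.0, 35.7 and 117.7 with LPS and 13.8, 19.7 and 7.2 with cpdA. Its groups did not overlap (log2 change -1.83, SE 0.62; limma adjusted p = 0.252), and the difference was -0.82 without LPS 3 and cpdA 3 (limma adjusted p = 0.581). Socs3, a feedback inhibitor of cytokine receptors, had 17610.6, 16362.3 and 16608.8 with LPS and 15499.6, 14752.3 and 3318.5 with cpdA, a small difference in libraries 1 and 2.

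Among genes of the TLR4 pathway, 4 of 27 (14.8%) lay below and 2 (7.41%) above LPS, near the background, with a median of -0.05. Myd88, the adaptor, had 5856.1, 5625.8 and 6108.6 counts with LPS and 4577.2, 4625.3 and 2157.7 with cpdA. Ly96, the co-receptor MD-2, Tbk1, a kinase of interferon induction, and Irf5, an interferon regulatory factor, were the others below LPS. Arrb2, the beta-arrestin that binds Gpr120, had 1431.4, 1483.1 and 1280.0 with LPS and 1520.4, 1361.9 and 1765.6 with cpdA, and Tab1 had 320.6, 329.6 and 356.1 with LPS and 367.1, 329.6 and 367.6 with cpdA. Both overlapped, with log2 changes of 0.14 and 0.08 (limma adjusted p = 0.572 and 0.75). NF-kB subunits and feedback inhibitors had a median of -0.27 and of -0.05 without the 2 libraries, with 5 of 22 (22.7%) below LPS. Ikbke, a kinase on that list, fell by 0.56 without LPS 3 and cpdA 3 (limma adjusted p = 0.0356). Of 14 kept receptors that sense lipids, 2 lay above and 1 below LPS. Ppard, a PPAR receptor that fatty acids bind, had 881.5, 878.1 and 661.0 with LPS and 1161.8, 988.0 and 1034.9 with cpdA, above but without passing the test (log2 change 0.40, SE 0.15; limma adjusted p = 0.285).

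All 16 kept MHC class II and costimulation genes, which present antigen to T cells, had a negative log2 change, with 8 (50%) below LPS and a median of -0.41 (-0.23 without LPS 3 and cpdA 3). Cd86, a ligand of CD28, had 2494.4, 2333.5 and 3264.0 counts with LPS and 1358.6, 1590.7 and 432.8 with cpdA, and it fell by 0.71 without the 2 libraries (limma adjusted p = 0.00577). Matrix metalloproteinases and their inhibitors had 4 of 18 below and 1 above LPS. Mmp10, the protease stromelysin 2, had 62.0, 79.5 and 35.8 with LPS and 21.2, 27.1 and 10.0 with cpdA, and it fell by 1.51 without the 2 libraries (limma adjusted p = 0.0458). Treml2, a receptor of the TREM family, had 180.4, 159.0 and 648.7 with LPS and 78.3, 80.4 and 154.8 with cpdA. Its cpdA 3 value nearly reached LPS 2, and it fell by 1.08 without the 2 libraries (limma adjusted p = 0.0124). Slc16a6, a transporter of ketone bodies, had 670.6, 679.9 and 523.9 with LPS and 1469.7, 1494.7 and 1035.8 with cpdA, and rose by 1.13 in that fit (limma adjusted p = 0.000698). Rn7s1, a copy of the signal recognition particle RNA, also rose there, by 1.15 (limma adjusted p = 0.0427), and copies of this RNA share reads.

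In the remaining lists, members above and below LPS numbered 1 and 6 of 32 for glycolysis and hypoxia, 1 and 3 of 32 for the cell cycle, 9 and 5 of 31 for lysosome and autophagy, 0 and 2 of 31 for the proteasome, and 1 and 2 of 34 for the respiratory chain. They numbered 3 and 2 of 20 for AP-1 and EGR factors, 1 and 2 of 18 for DUSP phosphatases, and 0 and 0 of 17 for prostaglandin and leukotriene enzymes. The lysosome share above LPS, 29%, was higher than the background of 10.7%, with a median of 0.07 that turned to -0.02 without LPS 3 and cpdA 3. Lipa, the lysosomal lipase, had 22991.7, 22579.2 and 22111.6 counts with LPS and 25385.1, 24324.3 and 50179.0 with cpdA, so cpdA 3 made up most of its difference.

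Cell type markers were checked in the same libraries. Macrophage markers summed to 700277, 713213 and 403505 normalized counts in LPS 1, 2 and 3 and to 711871, 699605 and 464925 in cpdA 1, 2 and 3, so the number 3 library was the lowest of each group. Markers of monocyte-derived and dendritic cells did likewise, with 45188, 46181 and 22984 with LPS and 48809, 47761 and 28574 with cpdA. Markers of resident peritoneal macrophages summed to 156446 to 161502 with LPS and 130542 to 169018 with cpdA, and no marker of the 3 lists was at 0 in all 6 libraries. Summed markers did not overlap for neutrophils (7403 to 8589 with LPS and 3600 to 6397 with cpdA), for T and NK cells (412 to 645 and 269 to 330), for mast cells, basophils and eosinophils (2071 to 2199 and 585 to 1672), and for erythrocytes and platelets (31 to 38 and 16 to 25). Each sum was lower with cpdA, although members with a positive log2 change numbered 2 of 5, 1 of 5, 1 of 7 and 0 of 2 kept markers. Members below LPS in all libraries numbered 1 of 5, 1 of 5, 1 of 7 and 1 of 2 kept markers. Named in that order they were Csf3r, the G-CSF receptor, Lck, a T cell kinase, Hdc, which makes histamine, and Gp1bb, a platelet glycoprotein. The share over all genes kept was 12.2%, and 1 member in lists this short singles out no cell type. Csf3r had 6941.8, 7068.5 and 8305.4 counts with LPS and 5784.4, 5787.9 and 3422.6 with cpdA. Hdc had 1839.0, 1703.2 and 1754.8 with LPS and 1204.1, 1385.7 and 114.1 with cpdA. Lck had 289.1, 312.3 and 415.4 with LPS and 186.2, 192.7 and 55.2 with cpdA. Each made up most of its sum, except Hdc and Lck in cpdA 3. Macrophages can express Csf3r and Hdc. Markers of B cells and of mesothelium, fibroblasts and endothelium had sums that overlapped. Yet 5 of 15 kept mesothelium, fibroblast and endothelium markers (33.3%) lay below LPS in all libraries and 0 above. Kdr, Krt19, Pecam1 and Upk1b were among them. Of macrophage markers, 3 of 13 (23.1%) lay below and 1 (7.69%) above. Of monocyte-derived and dendritic cell markers, 3 of 12 (25%) lay below and 0 above. Over all genes kept, 12.2% lay below and 10.7% above. A list of transcripts of the nucleus and of mitochondria was drawn up as a check on RNA quality, and 7 of its 17 entries were found. Mitochondrial genes such as mt-Co1, mt-Nd1 and mt-Atp6 were not among them. The 7 transcripts found summed to 14679 to 26134 with LPS and to 16584, 19937 and 56623 in cpdA 1, 2 and 3. Their part in the results, and that of the marker genes, was not tested.

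The values with cpdA were set beside those with DHA, at 10 µM and 100 µM for the same 1 h. Both are compared with the same LPS libraries, so their changes are not independent. In the direct comparison of cpdA + LPS with DHA + LPS, 0 of 13895 genes (0%) passed the limma test, with 142 at an unadjusted p under 0.05, and edgeR and DESeq2 called 0 as well. The doses differ, and cpdA 1 and DHA 1 were closer to each other than 2 libraries of either group; without DHA 1 and without cpdA 1 the count was again 0, with 372 and 173 genes at an unadjusted p under 0.05. Without LPS 3 and cpdA 3 it was 0 with 700 such genes, and with library weights 0 with 2790 (smallest adjusted p = 0.133, limma). Cpt1a had 3436 ± 267 normalized counts with DHA (SD, n = 3), and the cpdA minus DHA difference was 0.09 (95% interval -0.15 to 0.33). Plin2 differed by 0.16 (-0.36 to 0.67), Hspa5 by 0.10 (-0.25 to 0.45), Cry1 by 0.22 (-0.10 to 0.55) and Herpud1 by 0.19 (-0.42 to 0.80).

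Among genes that lay lower with cpdA, Ccl2 differed from DHA by -0.34 (95% interval -1.28 to 0.60), Ifit3 by -0.10 (-0.92 to 0.73), Lipg by -0.69 (-2.61 to 1.23) and Nos2 by -1.18 (-3.48 to 1.12). Slc6a9 had 66.9, 55.3 and 59.0 counts in DHA 1, 2 and 3, under all 3 cpdA values, a difference of 0.70 (95% interval 0.17 to 1.22; limma adjusted p = 1). An adjusted p above the threshold does not show that the compounds act alike.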

How the data were processed

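The authors deposited 1 table of normalized counts for 9 RNA-seq libraries, a signal made, as the values show, by dividing each library's read counts by 1 size factor and rounding. Per the submitters' processing notes the tools were CASAVA 1.8.2, Bowtie2 and DESeq with build mm9. The counting program, gene annotation, library kit and use of strand were not stated in those notes or in the labels, so reads of a gene and of its antisense partner may be mixed. Protocols in the labels for growing and extracting cells concern other material and were set aside. The share of whole reads, within 0.05, was 99.95% to 100.00% per library. Recovered depth was 13797079 to 37572822 reads, and limits on a count of 0 cover counting error only.

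Values were analysed as log2(value + 1), which understates changes of low genes, in limma 3.58.1 (R 4.3.3, statmod 1.5.0) with trend and robust options, all 9 libraries in 1 fit and Benjamini-Hochberg adjustment over 13895 genes. Count tests on the recovered reads used DESeq2 1.42.0 and the quasi-likelihood method of edgeR 4.0.16. The fitting script was tested on simulated data. Likeness of libraries was measured on reads thinned to the lowest depth.

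Members, lists and the rule for named genes were chosen with earlier results of these data known. The rule took called genes, the 15 widest gaps on each side where the higher group had a mean of 50 or more, the 10 largest rises and falls called without LPS 3 and cpdA 3, up to 4 members of each list and a fixed set. List members holding a printed motif, and a few others that complete a group, were added after their values were seen. Of 856 entries in 38 lists, 796 were found by gene identifier or symbol. Promoters are from RefSeq, GRCm38.p6. They were matched by gene, and 10464 kept genes had one. Fits had no block on the replicate number, so their tests were unpaired, unless they are named as blocked. For the blocked fits replicate numbers were taken as pairs by rule. Deviations of same-number LPS and cpdA libraries correlated across genes at 0.387, 0.234 and 0.437. LPS 2 with cpdA 1 (0.292) and LPS 1 with cpdA 2 (0.264) did too, so the numbers are a hint from the data and not the design.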

Additional observations from a re-analysis of the deposited data

How the results depend on the processing

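The count of 1 gene called for cpdA + LPS against LPS was the same with TMM scaling, quantile normalization, pseudocounts of 0.5 and 8, no filter, a filter of 50 and edgeR. It was 0 with limma without trend and robust options, with the libraries compared alone, with the replicate block and at a threshold of 0.01, 7 at a threshold of 0.1, 391 with DESeq2, 563 with library weights and 222 without LPS 3 and cpdA 3. Leaving out 1 library gave 0 to 3. For the 7 libraries, with counts of 290 (edgeR), 171 (replicate block) and 388 (DESeq2), leaving out 1 more gave 8 to 730. Genes above LPS in all libraries numbered 1485 and, with 1 library left out, 1852 to 2406, and those below 1702 and 2141 to 2605. Leaving out a library can only keep or raise these counts, so the rise says nothing about how stable they are. For cpdA + LPS against DHA + LPS all 22 alternatives gave 0. Of 141 named genes, 7 had the other sign in a setting: Il12b with library weights (0.02) and without LPS 3 and cpdA 3 (0.12), Arrb2 without LPS 3 and cpdA 3 (-0.02), and, with 1 library left out, Arg1 (-0.22 to 0.01), Il1b (-2.08 to 0.40), Il6 (-3.25 to 0.07), Tnf (-0.72 to 0.11), Ptgs2 (-1.59 to 0.31) and Il12b (-1.16 to 0.42), while Arrb2 ranged there from 0.04 to 0.23. The cause was not tested. The medians of 18 of 38 lists changed sign in a setting. Those of the PPAR, ER chaperone, integrated stress response, NRF2, clock, cholesterol, interferon and GTPase lists did not. With 9 libraries the replicate block changed no other call than that of Cpt1a. Depth limits genes of few reads such as Ffar4, and 3 libraries a group limit the precision of every other value.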

Other observations

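Among kept genes, 5 lay on opposite sides of LPS with cpdA and with DHA in all libraries. They were not named or tested.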
